A study of Rattus norvegicus with 9 samples.

Results

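The genes described are those of the extracellular matrix: the collagens, the laminins, the small leucine-rich and other matrix proteoglycans, and the elastic fibre, adhesive and crosslinking proteins that are laid down with them. They were chosen by symbol alone. Every probe set annotated with a single gene symbol was taken if the symbol was that of a collagen chain or a laminin chain, or was 1 of 23 further matrix genes named singly. This gave 55 probe sets for 55 genes, out of 36685 probe sets on the array and 14824 with exactly 1 symbol. They were 31 collagen genes, 8 laminin genes and 16 others, and 7 of the 23 singly named genes had no probe set with a single symbol.

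Collagens are triple-helical proteins. The fibrillar types give tissue its tensile strength, type IV forms the network of basement membranes, and other types sit on the surface of fibrils or link them to cells. Small leucine-rich proteoglycans such as decorin and lumican bind collagen fibrils and control how they assemble, lysyl oxidases crosslink collagen and elastin, and fibulins and fibrillins build elastic fibres. In liver, most of this matrix is made by stellate cells, portal fibroblasts and sinusoidal endothelium, while hepatocytes secrete large amounts of fibronectin.

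RNA came from the livers of neonatal Sprague Dawley rats and from cultured macrophages. Pups born to dams injected with PBS received either porcine CSF1-Fc, the macrophage growth factor CSF1 fused to an immunoglobulin Fc region, or PBS each day for 5 days, and livers were collected on day 6 (4 CSF1-Fc livers and 2 PBS livers). Bone marrow-derived macrophages (BMDM, 3 arrays) were grown for 7 days in CSF1 from marrow of Dark Agouti rats, so that these arrays differ from the livers in cell type, strain and culture at once. Values are log2 RMA expression from Affymetrix Rat Gene 2.1 ST arrays, a scale on which a difference of 1 is a 2-fold change. The labels do not say that each array is a separate animal or culture, so p-values measure only the spread between these arrays.

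Hepatocyte genes were far higher in the livers than in the BMDM: the mean level of 10 such genes was 11.76 to 12.05 in the 6 livers and 3.59 to 3.95 in the BMDM. Of the 10, 5 lay at or below the lowest BMDM array median on all BMDM arrays, while Tf read 7.62, 7.90 and 7.30 there. Array medians lay between 3.75 and 3.87. PBS liver 2 stood somewhat apart, with correlations across all probe sets of 0.951 to 0.962 to the other livers against 0.971 to 0.985 among the rest. In whole liver, fewer cells of a type and less RNA per cell cannot be told apart. Many matrix genes were dim on these arrays: 15 of the 55 lay at or below the array median on all 9 arrays, and 8 lay above it on all 9.

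Between CSF1-Fc-treated and PBS-treated livers, 4 of the 55 matrix genes changed. Lum and Dcn, which encode the proteoglycans lumican and decorin, fell, and Lox and Fbln5, which encode lysyl oxidase and fibulin-5, rose. A change is reported where limma's p, adjusted by Benjamini-Hochberg over all probe sets, was under 0.05. The 2 genes that fell are 3.64% of the members, where 0.254% of all probe sets fell, and the 2 that rose are 3.64% where 1.22% of all probe sets rose. The other genes did not pass. Over all 55 genes, the 4 called ones included, 8 were lower at an unadjusted p under 0.05 (14.5%; 6.4% of all probe sets) and 3 higher (5.45%; 7.31% of all).

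**Figure D1:**
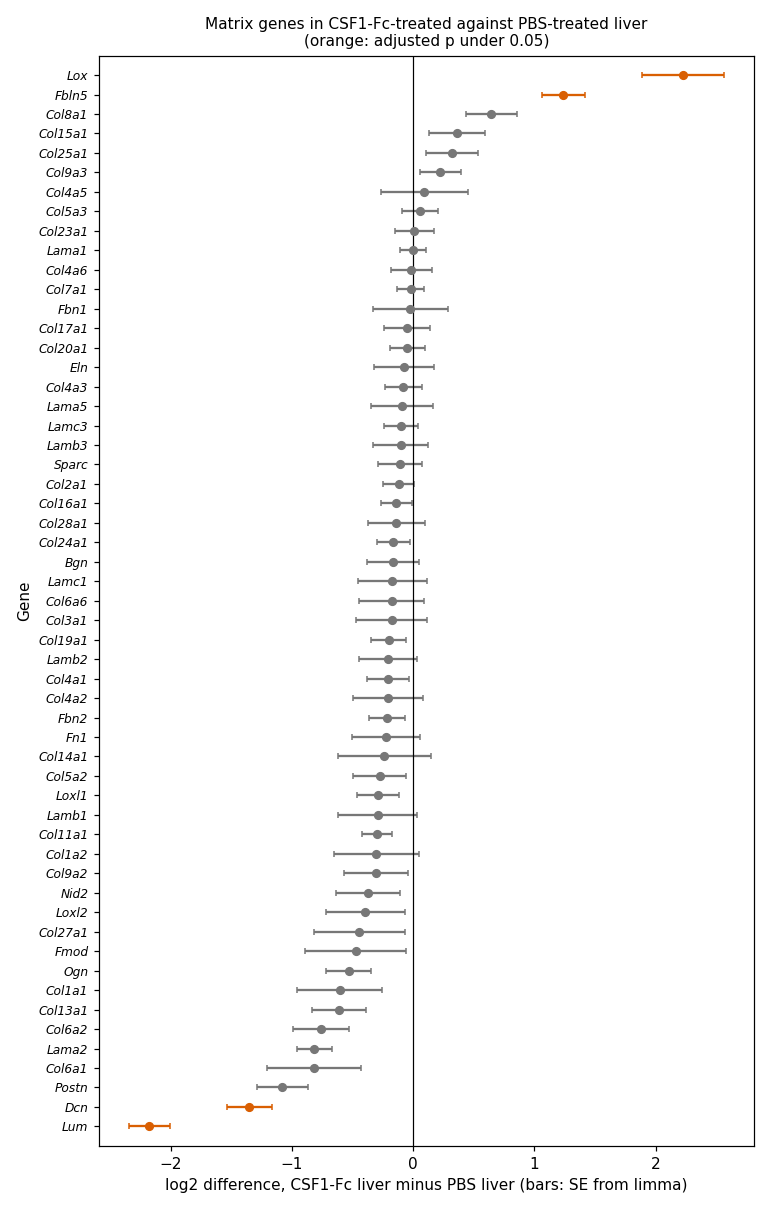
Difference in log2 expression between CSF1-Fc-treated livers (n = 4) and PBS-treated livers (n = 2) for each of the 55 matrix genes, 1 gene a row, with the difference on the x axis and bars of 1 standard error from limma. Lox (2.22) and Fbln5 (1.24) stand at the top and Lum (-2.17) and Dcn (-1.35) at the bottom in orange, and 45 of the 55 points lie below 0.

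Among the small leucine-rich proteoglycans, all 5 measured genes had a difference below 0, and 2 passed. Lumican is a keratan sulphate proteoglycan that regulates the diameter and spacing of collagen fibrils. Lum read 2.94, 3.03, 2.67 and 2.58 in the 4 CSF1-Fc livers, 5.02 and 4.94 in the PBS livers, and 2.31, 1.82 and 2.25 in BMDM. Both PBS livers were far above every treated liver, where the gene was below the array median, so its fold may be a lower limit. Its 4.51-fold lower level in treated liver (log2 difference -2.17, SE 0.17, limma adjusted p = 0.0128) stayed past the threshold without either PBS liver (adjusted p = 0.0276 and 0.041).

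Decorin is a dermatan sulphate proteoglycan that coats collagen fibrils and binds TGF-beta. Dcn read 7.94, 7.42, 7.50 and 7.57 in the CSF1-Fc livers and 9.06 and 8.86 in the PBS livers. The PBS livers again lay together above all treated livers, at a level well inside the measured range of the array. Dcn was 2.55-fold lower in treated liver (log2 difference -1.35, SE 0.18, adjusted p = 0.0317), and it missed the threshold when PBS liver 1 was left out (adjusted p = 0.0513), when PBS liver 2 was (0.0814) and in a fit of all 9 arrays (0.0540). When any 1 CSF1-Fc liver was left out, no probe set on the array passed in limma (2211 to 2387 higher and 1846 to 1879 lower at an unadjusted p under 0.05), and the adjusted p was 0.0544 to 0.072 for Lum and 0.0579 to 0.12 for Dcn.

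**Figure D2:**
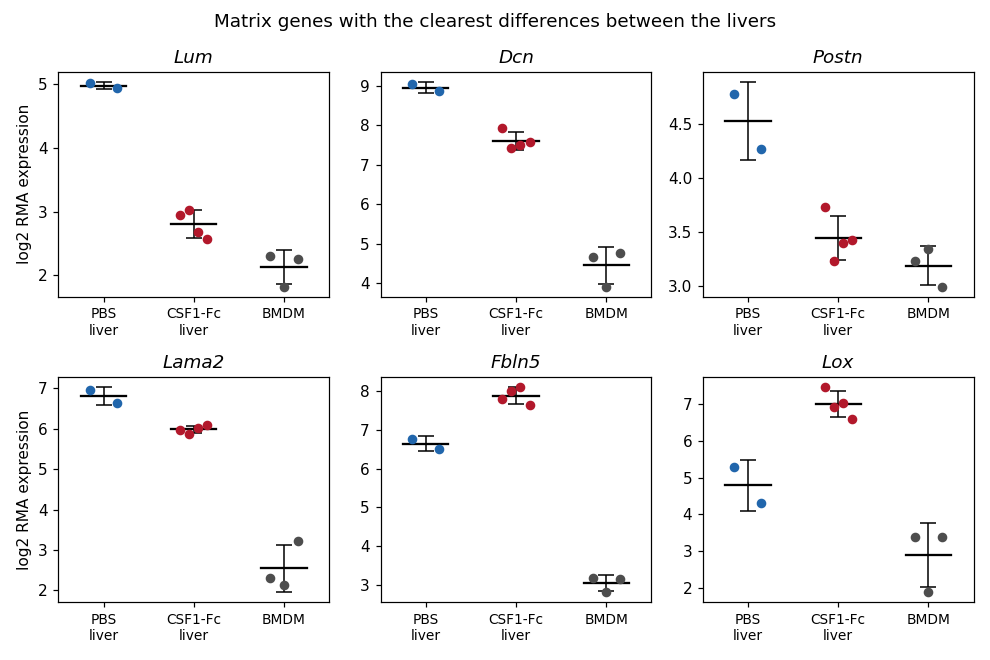
Log2 RMA expression (y axis) of Lum, Dcn, Postn, Lama2, Lox and Fbln5 on each of the 9 arrays, with PBS livers, CSF1-Fc livers and BMDM side by side on the x axis, a point for each array and a line at each group's mean with bars of 1 SD. In Lum, Dcn, Postn and Lama2 both PBS livers lie above all 4 CSF1-Fc livers, and in Lox and Fbln5 both lie below them.

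The genes for lumican and decorin are neighbours on chromosome 7 of the GRCr8 rat assembly, followed by Kera and Epyc, which encode the related proteins keratocan and epiphycan. Kera and Epyc were chosen for their position. Kera read 1.87, 1.61, 1.89 and 1.71 in the CSF1-Fc livers against 1.87 and 1.55 in the PBS livers (adjusted p = 0.901), near the bottom of the scale, and Epyc did not pass either (adjusted p = 0.988).

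The promoters of Lum and Fbln5, 1 gene that fell and 1 that rose, are shown. Dcn and Lox, which also passed between the livers, had no entry among the promoters used. Each is the stretch of 250 bases just before the RefSeq start on GRCr8, written 5′ to 3′ on the gene's strand, for Lum chr7:34245456-34245705 (plus strand) and for Fbln5 chr6:126742707-126742956 (minus strand). Capitals mark the only match in each to the 5 motifs searched on both strands.
Lum: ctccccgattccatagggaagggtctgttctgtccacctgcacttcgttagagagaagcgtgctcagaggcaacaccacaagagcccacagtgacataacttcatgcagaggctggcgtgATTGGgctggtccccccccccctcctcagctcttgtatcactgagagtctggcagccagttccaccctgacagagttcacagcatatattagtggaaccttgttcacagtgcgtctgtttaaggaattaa
Fbln5: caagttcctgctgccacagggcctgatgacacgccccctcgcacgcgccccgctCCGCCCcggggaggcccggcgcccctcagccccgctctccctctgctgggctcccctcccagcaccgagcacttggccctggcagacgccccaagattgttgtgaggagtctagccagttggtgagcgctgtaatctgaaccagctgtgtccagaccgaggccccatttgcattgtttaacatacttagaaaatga
The capitals in Lum are the 5 letters of a CCAAT box read on the other strand, 130 bases before the start site. Those in Fbln5 are the reverse complement of the GC box GGGCGG, 196 bases before it. Of 33469 rat promoters, 34% held CCAAT and 30.5% held GGGCGG, against 12 (28.6%) and 23 (54.8%) of the 42 matrix gene promoters in the RefSeq table. The TATA box TATAAA was in 12.9% of all promoters and 5 of the 42, the AP-1 site TGANTCA in 6.34% and 1, and the hypoxia response core ACGTG in 16.6% and 3. A match describes the letters in this window and was not tested as a binding site.

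The remaining proteoglycans of this class did not pass between the livers. Ogn, which encodes osteoglycin, read 7.51, 7.78, 7.50 and 7.48 in the CSF1-Fc livers and 8.35 and 7.85 in the PBS livers. The groups did not overlap, but PBS liver 2 was only just above CSF1-Fc liver 2 (log2 difference -0.53, SE 0.19, adjusted p = 0.285). Bgn, which encodes biglycan, the closest relative of decorin, read 10.30, 10.14, 10.53 and 10.03 against 10.68 and 10.16. PBS liver 2 sat within the treated range (log2 difference -0.17, SE 0.21, adjusted p = 0.776). Fmod, which encodes fibromodulin, was at or below the array median on all 9 arrays and gave -0.47 (adjusted p = 0.663).

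Lysyl oxidase, which starts the crosslinking of collagen and elastin, rose in treated liver. Lox read 7.46, 6.93, 7.04 and 6.61 in the CSF1-Fc livers, 5.28 and 4.30 in the PBS livers, and 3.40, 1.89 and 3.40 in BMDM. Every treated liver exceeded both PBS livers, which differed from each other by almost 1 log2 unit. The rise was 4.66-fold (log2 difference 2.22, SE 0.34, adjusted p = 0.0419). Without PBS liver 1 the adjusted p was 0.031, without PBS liver 2 it was 0.108, without any 1 CSF1-Fc liver 0.111 to 0.146, and in a fit of all 9 arrays 0.0684.

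The related enzymes Loxl1 and Loxl2 did not pass. Loxl1 read 4.29, 4.39, 4.66 and 4.24 in the CSF1-Fc livers and 4.52 and 4.85 in the PBS livers (log2 difference -0.29, adjusted p = 0.527). Loxl2 read 5.96, 5.32, 5.86 and 5.39 against 6.52 and 5.53 (-0.39, adjusted p = 0.644). In both genes 1 PBS liver sat within the treated range. Whether the difference in Lox was unlike those in Loxl1 and Loxl2 was not tested.

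Fibulin-5 tethers elastin to integrins and microfibrils during elastic fibre assembly. Fbln5 read 7.80, 8.01, 8.10 and 7.64 in the CSF1-Fc livers and 6.78 and 6.52 in the PBS livers. Every treated liver was above both PBS livers, and each group lay close together. The rise was 2.36-fold (log2 difference 1.24, SE 0.18, adjusted p = 0.0358), with adjusted p = 0.0397 without PBS liver 1, 0.106 without PBS liver 2 and 0.0876 to 0.132 without any 1 CSF1-Fc liver. Other elastic fibre genes overlapped between the groups. Eln, which encodes elastin, read 4.96, 4.87, 5.47 and 5.03 against 5.47 and 4.84 (log2 difference -0.07, adjusted p = 0.926). Fbn1, which encodes the microfibril protein fibrillin-1, read 7.01, 6.44, 7.27 and 6.46 against 7.12 and 6.51 (-0.02, adjusted p = 0.982). For Fbn1 both PBS livers sat inside the treated range, and for Eln they lay near its ends.

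None of the 31 collagen genes passed between the livers in limma. At an unadjusted p under 0.05 the counts were 3 lower (6.4% of all probe sets) and 1 higher (7.31% of all). Their median log2 difference was -0.16, with a range from -0.82 to 0.65. The fibrillar type I and III chains, the main collagens of fibrous tissue, were high in PBS liver 1 and not in PBS liver 2. Col1a1 read 6.11, 5.66, 6.22 and 5.87 in the CSF1-Fc livers and 7.18 and 5.96 in the PBS livers. Only PBS liver 1 was above the treated livers, and the log2 difference of -0.61 (SE 0.35, adjusted p = 0.516) became 0.01 (adjusted p = 0.994) without it. Col1a2, the partner chain of type I, read 6.92, 6.44, 7.10 and 6.63 against 7.64 and 6.51 (-0.30, adjusted p = 0.744). Col3a1, the type III chain of reticular fibres, read 7.44, 6.99, 7.64 and 6.99 against 7.82 and 7.06 (-0.18, adjusted p = 0.832). In each of the 3 chains PBS liver 2 sat inside the treated range.

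Type VI collagen forms beaded filaments around cells. Col6a1 read 5.65, 4.93, 5.88 and 5.33 in the CSF1-Fc livers against 6.83 and 5.70 in the PBS livers (log2 difference -0.82, SE 0.39, adjusted p = 0.434). Here PBS liver 2 lay within the treated range. Col6a2 read 5.45, 5.11, 5.10 and 5.05 against 6.28 and 5.59, without overlap (-0.76, SE 0.23, adjusted p = 0.216). Col13a1, a transmembrane collagen, read 3.84, 3.34, 3.84 and 3.63 against 4.54 and 4.01, also without overlap but near the array median (-0.61, adjusted p = 0.301). Col14a1, a fibril-associated collagen and among the brighter collagen probe sets, read 8.76, 8.28, 9.02 and 8.43 against 9.49 and 8.24. Its PBS livers lay on either side of the treated livers (-0.24, adjusted p = 0.829).

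Col8a1 was the only collagen whose PBS livers both lay below every treated liver. This short-chain collagen of vessel walls and fibrotic tissue read 4.34, 3.88, 4.28 and 3.83 in the CSF1-Fc livers and 3.62 and 3.25 in the PBS livers (log2 difference 0.65, SE 0.21, adjusted p = 0.259). The gap between the nearest arrays was small, and the difference did not pass.

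In the basement membrane, laminins and type IV collagen form networks joined by nidogens. None of the 8 laminin genes or Nid2 passed between the livers, with 1 lower at an unadjusted p under 0.05 (6.4% of all probe sets). Col4a1, a chain of the main type IV network, read 5.06, 4.69, 5.03 and 4.80 in the CSF1-Fc livers against 5.27 and 4.94 in the PBS livers (log2 difference -0.21, adjusted p = 0.643). Lamc1, the gamma chain of most laminins, read 6.89, 6.32, 7.10 and 6.78 against 7.29 and 6.60 (-0.17, adjusted p = 0.833). In both genes PBS liver 1 was highest and PBS liver 2 was inside the treated range. Nid2, which encodes nidogen-2, a linker of laminin and type IV collagen, read 6.97 in PBS liver 1 and exactly 6.07 in PBS liver 2 and 3 of the treated livers (-0.37, adjusted p = 0.586). A value repeated exactly on 2 or more arrays occurred in 25 of the 55 matrix genes and in 36.3% of all probe sets.

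Lama2, the alpha chain of the laminin of muscle basement membranes, was the 1 laminin gene whose liver groups did not overlap. It read 5.96, 5.88, 6.03 and 6.08 in the CSF1-Fc livers, 6.96 and 6.65 in the PBS livers, and 2.31, 2.13 and 3.22 in BMDM. The treated livers lay close together and both PBS livers were above them. The log2 difference was -0.82 (SE 0.14, adjusted p = 0.0616), and it passed when dim probe sets were left out (adjusted p = 0.0376), among probe sets with 1 symbol (0.0214) and after quantile normalization (0.0422). In the other 11 of 14 alternatives Lama2 did not pass, among them each fit without 1 CSF1-Fc liver.

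Among the adhesive and matricellular genes, Postn, Sparc and Fn1 were measured and none passed, with 1 lower at an unadjusted p under 0.05 (6.4% of all probe sets). Periostin binds collagen and is made by activated fibroblasts. Postn read 3.73, 3.24, 3.40 and 3.42 in the CSF1-Fc livers and 4.78 and 4.27 in the PBS livers. Both PBS livers were higher, on a gene near the array median (log2 difference -1.08, SE 0.21, adjusted p = 0.0772). It passed when dim probe sets were left out (adjusted p = 0.0419), among probe sets with 1 symbol (0.0293) and after quantile normalization (0.0498). In the other 11 of 14 alternatives Postn did not pass, among them each fit without 1 CSF1-Fc liver. Fn1, the fibronectin gene, read 11.36, 10.90, 11.30 and 11.19 against 11.87 and 10.95 (-0.22, adjusted p = 0.768). Sparc, which encodes a collagen-binding protein of growing matrix, read 10.01, 9.82, 9.95 and 9.96 against 10.32 and 9.77 (-0.11, adjusted p = 0.832). In Fn1 and Sparc only PBS liver 1 exceeded the treated livers.

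Counted over all 55 genes, lower levels in treated liver were seen against PBS liver 1 far more than against PBS liver 2. The log2 difference was below 0 for 45 of 55 genes (81.8%), against 54.8% of all probe sets, and its median was -0.18 against -0.03. Without PBS liver 1 the difference went from below to above 0 in 25 genes, among them Col1a1, Col1a2, Col3a1, Col14a1, Fn1, Sparc, Bgn and Loxl2, and none of the 4 called genes changed sign. PBS liver 1 was above all 4 CSF1-Fc livers in 36 of 55 genes (65.5%; 25.5% of all probe sets) and PBS liver 2 in 14 (25.5%; 33.1% of all). PBS liver 2 lay within the treated range in 27 of 55 (49.1%; 39% of all). The median difference of the treated livers was -0.39 from PBS liver 1 and 0.09 from PBS liver 2.

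The PBS livers also differed from each other. PBS liver 1 exceeded PBS liver 2 in 46 of 55 genes (83.6%; 46.9% of all probe sets), by at least 0.5 in 29 (52.7%; 18.7% of all). The median difference between them was 0.51 over the 55 genes and 0.00 over all probe sets. For example, Col4a5, a type IV chain, was at 4.13 in PBS liver 1 and 2.74 in PBS liver 2, on either side of the treated livers (3.53 ± 0.09, SD, n = 4). Both PBS livers were above all treated livers in 8 genes (14.5%; 10.4% of all probe sets), Lum, Dcn, Postn, Lama2, Col6a2, Col13a1, Ogn and Col11a1. Both were below in 3, Col8a1, Fbln5 and Lox (10.3% of all probe sets).

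**Figure D3:**
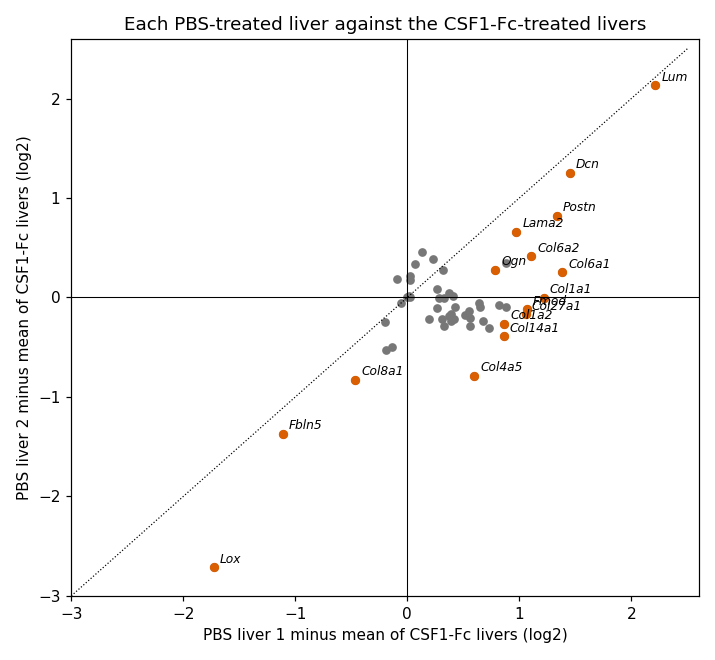
Each of the 55 matrix genes by PBS liver 1 minus the mean of the CSF1-Fc livers (x axis, log2) and PBS liver 2 minus the same mean (y axis, log2), with a dotted line where the PBS livers are equal. The median of the treated livers minus PBS liver is -0.39 for PBS liver 1 and 0.09 for PBS liver 2, so most points lie to the right of 0 and near 0 in height, with Lum high and Lox and Fbln5 low on both axes.

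Markers of the cells that make matrix were compared in the same livers. Of 13 measured stellate cell and pericyte markers none passed in limma, and 5 had an unadjusted p under 0.05 in either direction. Of all probe sets 7.31% were higher and 6.4% lower at that p. The difference was below 0 for 12 of the markers (54.8% of all probe sets), with a median log2 difference of -0.54. Their mean level was 5.92 to 6.12 in the CSF1-Fc livers, 6.63 in PBS liver 1 and 6.30 in PBS liver 2, so both PBS livers were higher. Hand2, a transcription factor of stellate cells, read 6.24, 5.38, 5.46 and 6.61 against 7.14 and 7.13 (log2 difference -1.21, adjusted p = 0.229). Colec11, a collectin of stellate cells, read 6.81, 6.80, 7.07 and 6.77 against 7.58 and 8.30 (adjusted p = 0.0946). Pdgfra, a receptor of mesenchymal cells, read 5.02, 5.02, 5.23 and 5.21 against 6.72 and 5.25 (adjusted p = 0.401). The PBS livers were above all treated livers in these 3 genes, for Pdgfra only just in PBS liver 2. Over the 13 markers PBS liver 1 was above all treated livers in 9 (25.5% of all probe sets) and PBS liver 2 in 6 (33.1% of all). Ngfr, a receptor of stellate cells and nerves, was the 1 marker above 0 (0.85, adjusted p = 0.294). Mesothelial markers moved with PBS liver 1 alone: it was above all treated livers in 5 of 5 measured markers and PBS liver 2 in none, with mean levels of 5.50, 4.50 and, in the treated livers, 4.45 to 5.02. None of the 5 mesothelial markers passed, also at an unadjusted p under 0.05 (0 of 5).

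Markers of fibroblasts (8 measured), of myofibroblasts and smooth muscle (6), of endothelium (10) and of cholangiocytes (4) gave no call between the livers in limma. At an unadjusted p under 0.05 in either direction their counts were 1, 3, 4 and 0. Of all probe sets 7.31% were higher and 6.4% lower at that p. The endothelial 4 went both ways, with Cdh5 higher (log2 difference 1.03, adjusted p = 0.219) and Clec4g lower (-1.11, adjusted p = 0.149). Of the myofibroblast and smooth muscle markers 5 of 6 were above 0, with a median log2 difference of 0.30 and mean levels of 6.73 to 7.04 in the treated livers against 6.33 and 6.71. Tagln, an actin-binding protein of smooth muscle, read 7.85, 6.94, 7.14 and 7.19 against 6.19 and 6.51 (0.93, adjusted p = 0.204). Vim, a filament protein of mesenchymal cells, gave 0.64 (adjusted p = 0.0962). It was not particular to those cells here, at 12.04, 12.11 and 12.20 in BMDM, above every liver. Of the other lists, 7 of 8 fibroblast, 8 of 10 endothelial and 4 of 4 cholangiocyte markers were below 0 (medians -0.20, -0.28 and -0.39), against 54.8% of all probe sets. Kupffer cell markers moved the other way: all 6 were above 0, and 5 passed the threshold as higher in treated liver (1.22% of all probe sets). Their mean levels were 9.68 to 10.02 in the treated livers against 8.08 and 8.27 in the PBS livers. Neutrophil markers had mean levels of 5.19 to 6.26 in the treated livers and 7.17 and 7.73 in the PBS livers, with none of 8 past the threshold. At an unadjusted p under 0.05 in either direction the count was 6, beside the 7.31% of all probe sets higher and 6.4% lower. The part of any of these cells in the levels of matrix genes was not tested.

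Genes that process collagen and receptors that bind matrix were listed apart from the 55. Of 19 measured collagen synthesis genes 1 rose (1.22% of all probe sets) and none fell (0.254% of all), and the median log2 difference was 0.04. Colgalt1, which adds galactose to collagen hydroxylysine, read 8.92, 8.96, 8.97 and 9.27 in the CSF1-Fc livers and 7.69 and 7.80 in the PBS livers, a 2.44-fold rise (log2 difference 1.29, SE 0.15, adjusted p = 0.0194; 0.0599 when PBS liver 2 was left out). P4ha1, a catalytic subunit of collagen prolyl hydroxylase, read 6.84, 7.03, 7.81 and 7.25 against 5.74 and 5.80, without overlap (1.46, SE 0.27, adjusted p = 0.0725). Serpinh1, the collagen chaperone HSP47, was lower in each treated liver than in both PBS livers, at 7.48, 7.06, 7.20 and 7.29 against 7.92 and 7.86 (-0.64, SE 0.15, adjusted p = 0.133).

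Of 19 measured matrix receptors 2 rose (1.22% of all probe sets) and none fell (0.254% of all), with a median log2 difference of -0.16. Cd36, a receptor for thrombospondin, collagen and lipids that is also found on macrophages, read 9.37, 9.41, 9.45 and 9.52 in the CSF1-Fc livers and 7.32 and 7.04 in the PBS livers (2.26, SE 0.13, adjusted p = 0.0116). Sdc3, the transmembrane heparan sulphate proteoglycan syndecan-3, read 10.24, 10.29, 10.44 and 10.28 against 9.08 and 8.45 (1.55, SE 0.20, adjusted p = 0.0274). In both genes the treated livers lay close together above both PBS livers, and both stayed past the threshold without either PBS liver. Of 40 further matrix glycoproteins and proteoglycans none passed in limma, and 7 had an unadjusted p under 0.05 in either direction. At that p 7.31% of all probe sets were higher and 6.4% lower. Of the 40 genes 31 were below 0 (54.8% of all probe sets) and the median was -0.17. Ecm1, a secreted matrix glycoprotein, had the largest difference of that list (-1.17, adjusted p = 0.118).

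BMDM were compared with the livers to see which matrix transcripts CSF1-grown macrophages carry. Against CSF1-Fc-treated liver, 30 of the 55 genes were lower in BMDM (54.5%; 17.5% of all probe sets) and 1 was higher (19.9% of all probe sets). The arrays of the groups did not overlap in any of these 31 genes (20.1% of all probe sets were lower and 24.1% higher without overlap). The median log2 difference of the 55 genes was -0.71, against 0.14 over all probe sets. Of the 30, Lamb1, Lamb2, Lamc1, Nid2, Col20a1 and Lum lost the call without 1 or another array (adjusted p = 0.0502 to 0.0965).

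**Figure D4:**
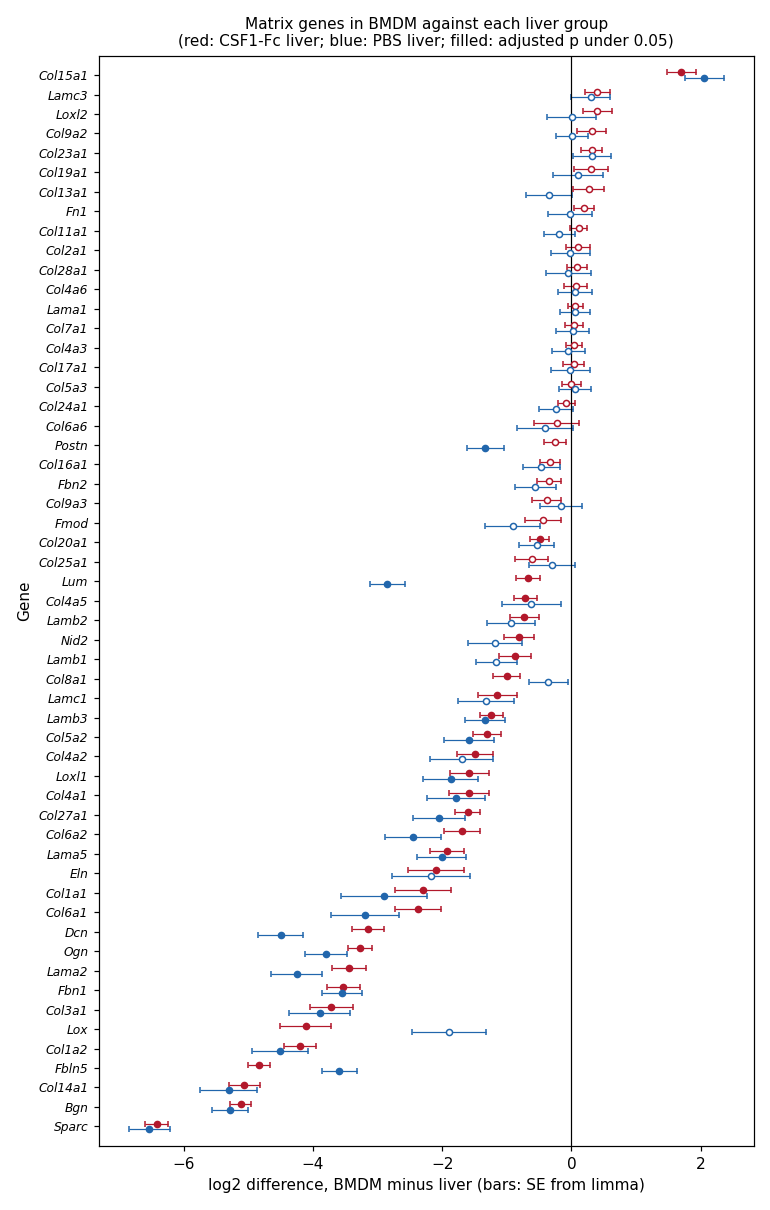
Difference in log2 expression (x axis) between BMDM (n = 3) and CSF1-Fc-treated livers (red, n = 4) or PBS-treated livers (blue, n = 2) for each of the 55 matrix genes, 1 gene a row, with bars of 1 standard error from limma and filled points where the adjusted p was under 0.05. Against CSF1-Fc-treated liver Sparc (-6.42) lies farthest left, Col15a1 (1.70) is the only gene past the threshold above 0, and Fn1 (0.20) did not pass.

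Sparc, Bgn and Col14a1 were among the genes with wide differences. Where the BMDM level was near or below the array median of 3.77 to 3.81, as for Sparc, Col14a1 and Fbln5, the fold may be a lower limit and gives no rank. Sparc was at 3.78, 3.58 and 3.17 in BMDM, 85.8-fold below CSF1-Fc-treated liver (log2 difference -6.42, SE 0.17, adjusted p = 4e-07). Bgn was at 5.08, 5.26 and 5.05 in BMDM, 34.8-fold lower (-5.12, SE 0.16, adjusted p = 6.27e-07). Col14a1 was at 3.16, 3.71 and 3.80 in BMDM (-5.07, SE 0.24, adjusted p = 3.44e-06). In all 3 genes the BMDM arrays were far below every liver. Fbln5, which rose in treated liver, was at 3.18, 2.82 and 3.16 in BMDM, 28.5-fold below CSF1-Fc-treated liver (-4.83, SE 0.17, adjusted p = 1.08e-06).

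Among the fibrillar collagens, 5 of 9 were lower in BMDM than in CSF1-Fc-treated liver (17.5% of all probe sets). Col1a2 was at 2.65, 2.92 and 2.12 in BMDM (log2 difference -4.21, SE 0.24, adjusted p = 9.55e-06) and Col3a1 at 2.76, 3.84 and 4.04 (-3.72, SE 0.33, adjusted p = 8.67e-05). Col1a1 was at 2.74, 4.74 and 3.52, more scattered than its partner chain and still below every liver (-2.30, SE 0.43, adjusted p = 0.00398). Col5a2, a minor chain of type I fibrils, gave -1.31 (adjusted p = 0.00196) and Col27a1, a fibrillar collagen of cartilage, -1.61 (adjusted p = 0.000468). Of the type VI chains, Col6a1 (-2.37, adjusted p = 0.00126) and Col6a2 (-1.69, adjusted p = 0.00189) were lower.

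The genes that changed between the livers were all lower in BMDM than in CSF1-Fc-treated liver. Dcn was at 4.67, 3.92 and 4.77 in BMDM, 8.89-fold lower (log2 difference -3.15, SE 0.24, adjusted p = 4.05e-05). Lox gave -4.12 (SE 0.40, adjusted p = 0.000129), and the BMDM arrays were themselves spread by over 1 log2 unit. Lum gave -0.68 (SE 0.19, adjusted p = 0.024), from a treated liver level that was below the array median. Ogn was at 4.31, 4.62 and 3.97 in BMDM (-3.27, SE 0.19, adjusted p = 8.9e-06). So 4 of the 5 small leucine-rich proteoglycans were lower (17.5% of all probe sets), with Fmod not past the threshold.

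Of the laminins and Nid2, 7 of 9 were lower in BMDM (17.5% of all probe sets). Lama2 had the largest difference (-3.44, SE 0.26, adjusted p = 3.63e-05), and Lama5, the alpha chain of endothelial and epithelial laminins, gave -1.92 (adjusted p = 0.000844). Lamc1 read 6.03, 5.91 and 4.94 in BMDM (-1.14, adjusted p = 0.0205), a level above the array median and below every liver. Fbn1 was at 3.52, 3.27 and 3.00 in BMDM (-3.53, SE 0.25, adjusted p = 2.59e-05), and Eln at 1.84, 3.45 and 3.67 (-2.10, SE 0.43, adjusted p = 0.00634).

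Fn1, Loxl2 and Col15a1 were not lower in BMDM. Fn1 read 11.46, 11.32 and 11.37 in BMDM, within the range of the livers, with a log2 difference from CSF1-Fc-treated liver of 0.20 (SE 0.16, adjusted p = 0.343) and from PBS-treated liver of -0.02 (adjusted p = 0.975). Loxl2 read 6.35, 5.88 and 5.87 in BMDM (0.40 from CSF1-Fc-treated liver, adjusted p = 0.196), overlapping the livers. Col15a1, which encodes a basement membrane-associated collagen of the multiplexin family, read 4.96, 5.53 and 5.48 in BMDM against 3.82, 3.76, 3.74 and 3.17 in the CSF1-Fc livers. All BMDM arrays were above all livers, a 3.24-fold difference (1.70, SE 0.22, adjusted p = 0.000663). Pxdn, a peroxidase that crosslinks type IV collagen and is not among the 55 genes, was also higher in BMDM, at 8.63, 8.26 and 7.12 against 3.25, 3.27, 3.51 and 2.89 (4.77, SE 0.35, adjusted p = 3.2e-05). Its list of crosslinking enzymes had 4 measured genes, of which none passed between the livers in limma. At an unadjusted p under 0.05 the count was 1, where 7.31% of all probe sets were higher and 6.4% lower. The largest liver difference of that list was in Tgm1, a transglutaminase (0.78, adjusted p = 0.133).

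**Figure D5:**
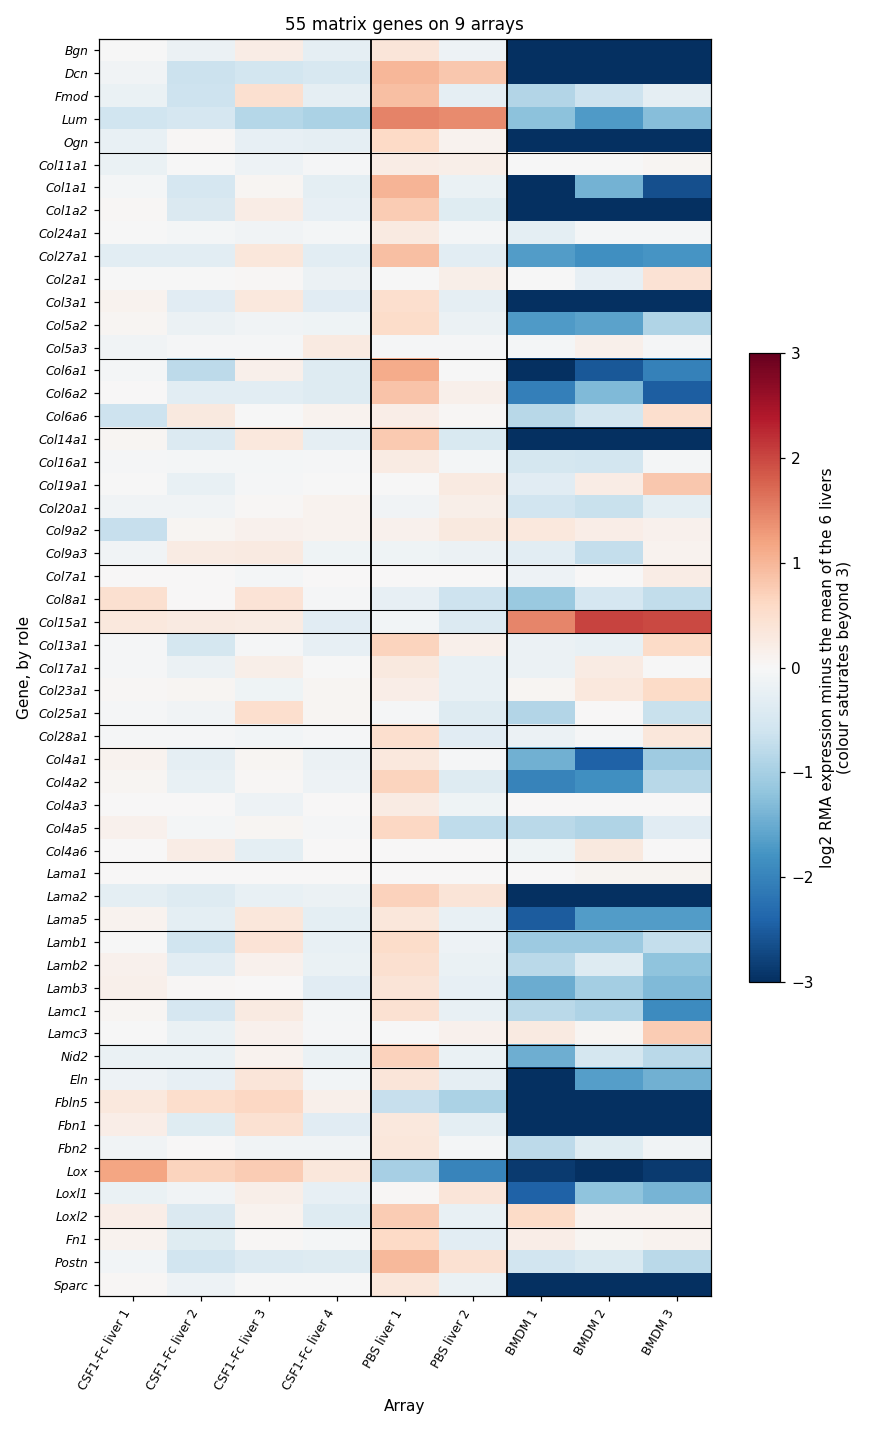
The 55 matrix genes (rows, grouped by role) on the 9 arrays (columns: 4 CSF1-Fc livers, 2 PBS livers and 3 BMDM), with colour for log2 RMA expression minus the gene's mean over the 6 livers, red above and blue below, saturating beyond 3. PBS liver 1 is red in most rows (above PBS liver 2 in 46 of 55 genes), Lum and Dcn are red in both PBS livers, and the BMDM columns are blue in the 30 lower genes and red in Col15a1.

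The comparison of BMDM with PBS-treated liver shares the BMDM arrays with the one above and rests on 2 livers. There, 21 of 55 genes were lower (38.2%; 10.4% of all probe sets) and Col15a1 was higher (10.2% of all probe sets). The lower count was 11 without PBS liver 1 and 13 without PBS liver 2, and Col15a1 (log2 difference 2.06, SE 0.30, adjusted p = 0.00594) did not pass without PBS liver 2 (0.0564). Lum gave -2.85 (adjusted p = 0.00142) against PBS-treated liver beside -0.68 against CSF1-Fc-treated liver, and Dcn -4.50 (adjusted p = 0.000684) beside -3.15. Lox gave -1.89 (SE 0.58, adjusted p = 0.0707) beside -4.12. Postn gave -1.33 against PBS-treated liver (adjusted p = 0.0227; 0.12 without PBS liver 1 and 0.0546 without PBS liver 2) and -0.26 against CSF1-Fc-treated liver (adjusted p = 0.267).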

How the data were processed

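RNA of neonatal rat liver (6 arrays) and of BMDM (3 arrays) was measured on Affymetrix Rat Gene 2.1 ST arrays. The authors extracted RNA with TRIzol and RNeasy columns, checked the arrays in Expression Console, and deposited log2 RMA expression made in R with the Transcription Analysis Console. Whether the 9 arrays were normalized together is not given in the sources used here, which bears on BMDM against liver. The deposited log2 values were used unchanged for all 36685 probe sets, so changes of total RNA are not seen, and the number of arrays limits the precision.

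Groups from the labels were compared by limma 3.58.1 (lmFit and eBayes, two-sided, R 4.3.3), each comparison in a fit of its own groups. All probe sets entered the Benjamini-Hochberg adjustment, and 0.05 was the threshold. A standard error is that of limma and an SD is over arrays. Probe sets were named from the platform annotation (829 had several symbols and 21032 none), and all 55 symbols matched RefSeq by Entrez identifier unchanged. Counts and sequences were handled in Python 3.11.15 with pandas 2.3.3 and numpy 2.4.6, and plots were drawn with matplotlib 3.10.9. The fits were tested first on simulated data in which few probe sets were changed. Between the livers 26.9% of 2-fold and 68.1% of 4-fold changes were called. Between BMDM and CSF1-Fc-treated liver these were 24.5% and 71.9%, and between BMDM and PBS-treated liver 0% and 0%. The measured BMDM comparisons had many calls: 10.4% of probe sets down and 10.2% up beside PBS livers, 17.5% and 19.9% beside CSF1-Fc livers. The adjustment depends on how many probe sets change, so the simulated BMDM rates do not give the power of these comparisons. Postn, at a log2 difference of -1.33 from PBS-treated liver, was called. In any comparison, a gene that did not pass may still differ.

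The members and the 16 gene lists (235 genes, of which 166 were measured outside the members) were chosen with earlier results of these data known. Values on every array are given for members that passed between the livers and for the 12 with the largest difference between the livers or between BMDM and CSF1-Fc-treated liver, with further members by role, and for some of the 4 genes of a list with the largest liver difference. Kera and Epyc are outside that rule and were named for their position. Each fit was repeated on all 9 arrays, on the brighter probe sets (33 of the 55 members were above the median probe set in the livers), on probe sets with 1 symbol, and with a trended robust prior, quantile normalization, centring on the array median or on hepatocyte genes, blocking on replicate number, and each array left out.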

Additional observations from a re-analysis of the deposited data

Results flagged for a closer look

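Among 18 matrix genes given on every array, 2 had a CSF1-Fc liver far from the other 3. Chance flags about 1 in 20 groups. Col6a2 was highest in CSF1-Fc liver 1, at 5.45 with the next liver at 5.11, a gap of 0.864 of the group's range, over the limit of 0.829 for 4 samples. Ogn was highest in CSF1-Fc liver 2, at 7.78 with the next liver at 7.51, a gap of 0.879 of the range. They were in different livers, and both remained below PBS liver 1 and PBS liver 2.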

How the results depend on the processing

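With 2 PBS livers, calls between the livers depended on single arrays. The matrix genes that rose were 2 in the fit reported, 1 in a fit of all 9 arrays and 0 to 3 when 1 array was left out. Those that fell were 2, and 1 in a fit of all 9 arrays, 4 among probe sets with 1 symbol, 4 after quantile normalization and 0 to 1 when 1 array was left out. Of the 166 measured list genes, 13 rose (1.22% of all probe sets), and 0 to 16 when 1 array was left out. None of them fell, against 3 in a fit of all 9 arrays, 3 with centring on hepatocyte genes, 3 without dim probe sets, 8 among probe sets with 1 symbol and 0 to 4 when 1 array was left out. Without PBS liver 1 the difference in Col1a1 turned from -0.61 to 0.0056 (range without 1 array -1.22 to 0.0056). Over all 55 matrix genes, 25 differences went from below to above 0 without PBS liver 1, none of them past the threshold before, and 3 changed sign without PBS liver 2.

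The replicate number as a block left 0 matrix genes higher and 0 lower between the livers (3 and 6 at an unadjusted p under 0.05), 0 list genes higher (23 genes), and no probe set past the threshold in limma (lowest adjusted p = 0.543). The labels give these numbers as names only. The higher replicate numbers occur only among the CSF1-Fc livers, so this block leaves little residual spread to test on. Same-numbered livers had correlations of their deviations of 0.02 and 0.18, and different-numbered livers of -0.21 to 0.21. With 2 PBS livers the values for each mirror those for the other, so they cannot decide whether the numbers pair the livers. Same-numbered BMDM and CSF1-Fc livers had correlations of -0.02, -0.05 and -0.04, so those arrays did not deviate together. The 30 matrix genes lower in BMDM than in CSF1-Fc-treated liver became 24 under that block and 24 to 32 when 1 array was left out. The 12 with the largest difference passed in all 14 alternatives (highest adjusted p = 0.0084). Against PBS-treated liver, when 1 array was left out, the 1 higher gene became 0 to 1, the 21 lower genes 11 to 19, and the 83 lower list genes 53 to 80. The causes of these changes were not tested. Genes near or below the array median have levels that signal over background limits. Lum in treated liver lay below it, and Lum was absent from the fit on the brighter probe sets.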
